A study of Homo sapiens with 12 samples.

Results

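The response to BRG1 siRNA shared by DLD1 and HCT 116 cells was described for every gene with 1 symbol on the array, 17687 genes out of 21448 measured features, over all 12 arrays of the study. For each gene the change after siBRG1 (mean of the siBRG1 arrays minus mean of the siControl arrays, log2) was taken within each line, and the mean of these 2 changes is called the average change here. No measured value was used to choose the genes. DLD1 and HCT 116 are established human colorectal cancer lines, and the 4 groups were DLD1 with siControl, DLD1 with siBRG1, HCT 116 with siControl and HCT 116 with siBRG1, with 3 arrays in each. The labels name 1 siBRG1 and 1 siControl. Sources used here give neither siRNA sequence nor hours of treatment, so effects of losing BRG1 and effects of the siRNA itself cannot be told apart. For 4 HCT 116 samples title and source name disagree in their numbering, and the title was followed. Whether replicate arrays had separate cultures behind them is not stated, and the p-values therefore cover the spread among these samples alone, which may be technical.

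BRG1, the product of SMARCA4, is an ATPase that drives SWI/SNF complexes, which slide or evict nucleosomes and so open or close promoters and enhancers to transcription factors. BRM, the product of SMARCA2, is the alternative ATPase of the same complexes. A complex holds 1 of these ATPases together with core, bridging and accessory subunits, and in intestinal epithelium BRG1 is known for its part in stem cell maintenance and Wnt-driven tumour growth.

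Both lines carried epithelial transcripts. EPCAM, KRT8, KRT18 and KRT19 had group means between 14.43 and 16.76 (log2), and CDH1 and CDX2 between 9.36 and 14.02. Of the 10 colorectal epithelial markers, LGALS4 and GPA33 were low in both lines (means from 3.43 to 3.92), VIL1 lay between 4.03 and 5.5, and CDH17 was low in HCT 116 (3.93 and 3.96) but not in DLD1. None of the 10 passed the test of the average change described next. Of 15 fibroblast, leukocyte and endothelial markers 1 passed, CD68, a lysosomal glycoprotein also made by cells other than macrophages (average change 0.71), while the leukocyte marker PTPRC stayed between 3.66 and 4.04. The table holds no detection calls, so low values cannot be told from background. In bulk RNA, fewer cells of a type and less RNA per cell cannot be told apart.

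The siRNA target was lower in every siBRG1 array. SMARCA4 read 10.31, 9.95 and 10.29 in DLD1 siControl and 6.29, 6.55 and 6.31 in DLD1 siBRG1. In HCT 116 it read 10.12, 10.15 and 9.59 with siControl and 6.78, 6.39 and 7.03 with siBRG1. The groups did not overlap in either line, and the average change was −3.51 (SE 0.15, limma adjusted p = 1.03e-08). An exact 2-sided permutation of the array labels within each line gave p = 0.005, the smallest value its 400 arrangements can give. SMARCA2 had an average change of −0.55 (SE 0.22, limma adjusted p = 0.157), and its arrays overlapped in both lines.

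Limma called 1536 genes on average at an adjusted p under 0.05, which is 8.68% of the genes tested. Of them 709 (4.01%) were higher and 827 (4.68%) lower after siBRG1, and 3804 genes had an unadjusted p under 0.05. Among the called genes 1486 (96.7%) had the same sign in both lines, against 60.9% of all genes, a share that the average itself favours. The calls are not all shared changes: 1213 of the 1536 (79.0%) had the larger change in HCT 116, against 59.8% of all genes. Their median size was 0.513 in DLD1 and 0.858 in HCT 116, against 0.179 and 0.232 over all genes. The line-by-line tests, which ignored the replicate numbers, called 0.198% of all genes in DLD1 and 6.95% in HCT 116. Of the 1536, 919 were called in HCT 116 but not in DLD1, 16 in DLD1 but not in HCT 116, 17 in both and 584 (38.0%) in neither. Leaving out 1 array gave between 797 and 1593 calls: 797 without DLD1 siBRG1 replicate 3, 1013 without DLD1 siControl replicate 3, 935 without HCT 116 siControl replicate 2, 982 without HCT 116 siBRG1 replicate 2 and 1000 without HCT 116 siBRG1 replicate 3. Of the 1536 genes, 715 were called whichever array was left out. With the replicate number as a block within each line, 2476 genes were called.

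A gene is called separated here when it passed on average and all its siBRG1 arrays lay on the same side of its siControl arrays in each line. This held for 709 genes, 329 higher and 380 lower (4.01%, 1.86% and 2.15% of the genes tested), with median sizes of 0.588 in DLD1 and 0.775 in HCT 116. The 2 lines' changes both reached 1 on the log2 scale in 12 of the higher and 30 of the lower separated genes. Leaving out DLD1 siBRG1 replicate 1 raised the count of separated genes to 1114. Separation ignores the replicate numbers: comparing DLD1 arrays within their 3 numbered pairs, a looser rule, gave 1118 genes (6.32%). An arrangement with no overlap in both lines, called or not, was found for 901 genes (5.09%), 445 higher (2.52%) and 456 lower (2.58%). Of the genes called on average, 50 differed between the lines by a test of the difference itself, which called 59 of all genes (0.334%), and 8 of the separated genes were among them.

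**Figure D1:**
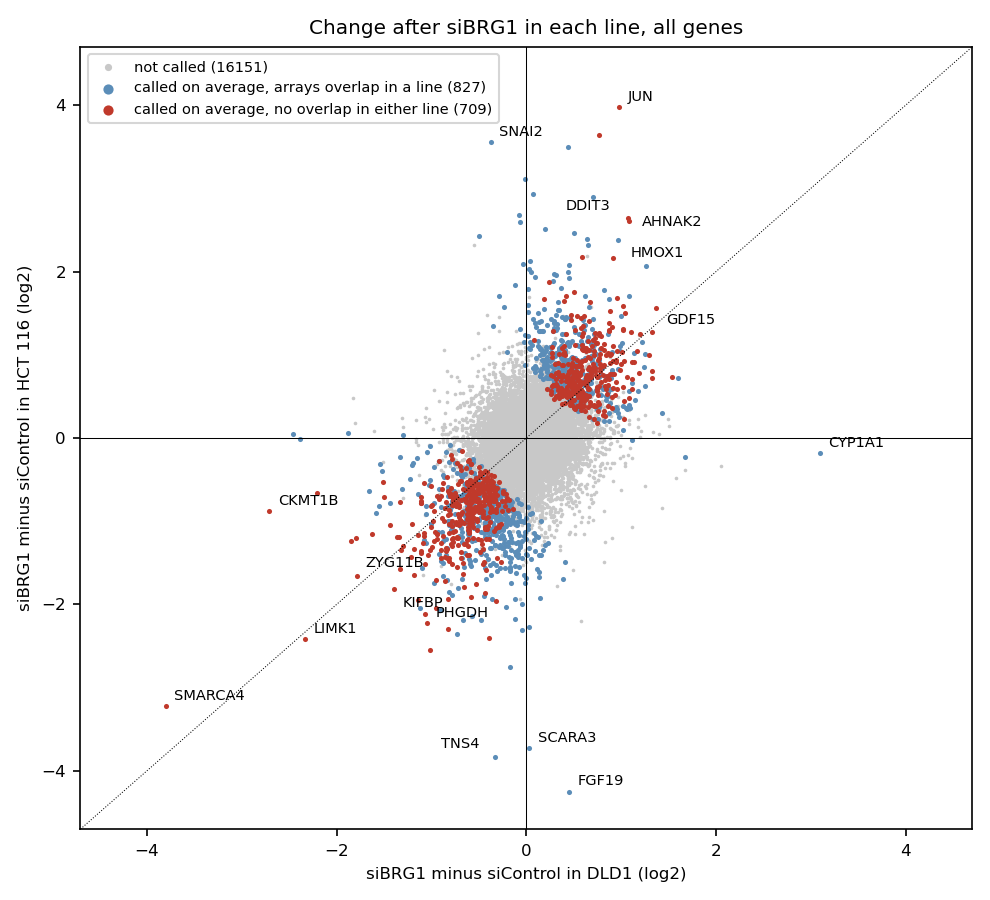
Each point is a gene, with its change after siBRG1 in DLD1 on the x axis and in HCT 116 on the y axis (both log2, means of 3 arrays minus means of 3 arrays); the dotted line marks equal changes. Red points are the 709 separated genes, blue points the other 827 genes called on average and grey points the 16151 not called. SMARCA4, LIMK1 and ZYG11B lie near the dotted line, whereas JUN, TNS4, FGF19 and SNAI2 lie near the HCT 116 axis.

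Stricter readings of a shared change left few genes. Called in each line with the same sign were 17 genes (0.0961%), and with the replicate block 49. A combined test that asks for a change in the same direction in each line called 4 genes (0.0226%), all lower: SMARCA4, LIMK1, ZYG11B and KIFBP (limma adjusted p from 4.57e-06 to 0.008), with 797 at an unadjusted p under 0.05. On simulated data this combined test called 0% of log2 changes of 0.5 in both lines and 36% of changes of 1. A low count from it therefore need not mean few shared changes. The count in each line fell to 4 without replicate 3 of either DLD1 group, to 6 without HCT 116 siControl replicate 2 or siBRG1 replicate 3, and to 7 without DLD1 siControl replicate 1, HCT 116 siControl replicate 3 or HCT 116 siBRG1 replicate 2. It rose to 31 without DLD1 siBRG1 replicate 1, where the combined test called 7.

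After SMARCA4, the fall with the largest smaller-of-the-lines change was that of LIMK1, a kinase that phosphorylates and inactivates the actin-severing protein cofilin. LIMK1 read 8.12, 8.31 and 7.89 in DLD1 siControl and 5.75, 6.29 and 5.28 in DLD1 siBRG1. In HCT 116 it read 8.30, 8.23 and 8.57 with siControl and 6.31, 5.40 and 6.14 with siBRG1. Every siBRG1 array was more than 1 unit below every siControl array of its line, and the average change was −2.38 (SE 0.19, 5.2-fold lower, limma adjusted p = 1.3e-05). ZYG11B, a substrate receptor of a cullin ubiquitin ligase that reads glycine at protein N-termini, read 11.35, 11.16 and 11.20 against 9.23, 9.90 and 9.24 in DLD1. It read 10.54, 10.76 and 10.93 against 9.28, 9.02 and 8.96 in HCT 116. The groups were again apart in both lines (average −1.72, SE 0.14, limma adjusted p = 1.68e-05). KIFBP, a protein that binds kinesin motors and keeps them off microtubules, read 12.06, 11.52 and 11.60 against 10.42, 10.27 and 10.32 in DLD1. In HCT 116 its values were 12.18, 12.34 and 12.31 against 10.59, 10.26 and 10.54. Its siBRG1 arrays were the lower in both lines (average −1.60, SE 0.13, limma adjusted p = 1.3e-05).

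The 250 bases before the RefSeq start of LIMK1 (GRCh38.p14, chr7:74083554-74083803, plus strand) are shown because it had the largest fall after the siRNA target. Capitals mark the match to the E2F letters searched below, whose first base is at position −71 from the start.
LIMK1: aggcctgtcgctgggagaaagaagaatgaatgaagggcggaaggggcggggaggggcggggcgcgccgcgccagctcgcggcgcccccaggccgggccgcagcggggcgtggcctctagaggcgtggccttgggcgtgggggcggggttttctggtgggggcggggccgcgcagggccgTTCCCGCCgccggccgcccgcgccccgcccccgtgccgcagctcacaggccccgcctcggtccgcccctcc

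A further 8 separated falls, ranked next by the smaller of their 2 line changes, all kept their call whichever array was left out. DESI1, a desumoylating isopeptidase, changed by −1.84 in DLD1 and −1.23 in HCT 116 (average −1.54, SE 0.21). RPL22L1, a paralog of the ribosomal protein RPL22, changed by −1.79 and −1.2 (average −1.5, SE 0.22), and its DLD1 siBRG1 arrays were spread from 11.61 to 13.28 below siControl values of 14.22 to 14.26. The lysophosphatidylcholine acyltransferase LPCAT1 changed by −1.33 and −1.57, FAM111B, a serine protease of replicating cells, by −1.19 and −1.65, and ENDOD1 by −1.32 and −1.35. MANF, a secreted protein of the endoplasmic reticulum, changed by −1.21 and −1.42, and the glycosidase MYORG by −1.37 and −1.19. BCL7B, an accessory SWI/SNF subunit, changed by −1.30 in each line (SE of the average 0.20, limma adjusted p = 0.00148).

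**Figure D2:**
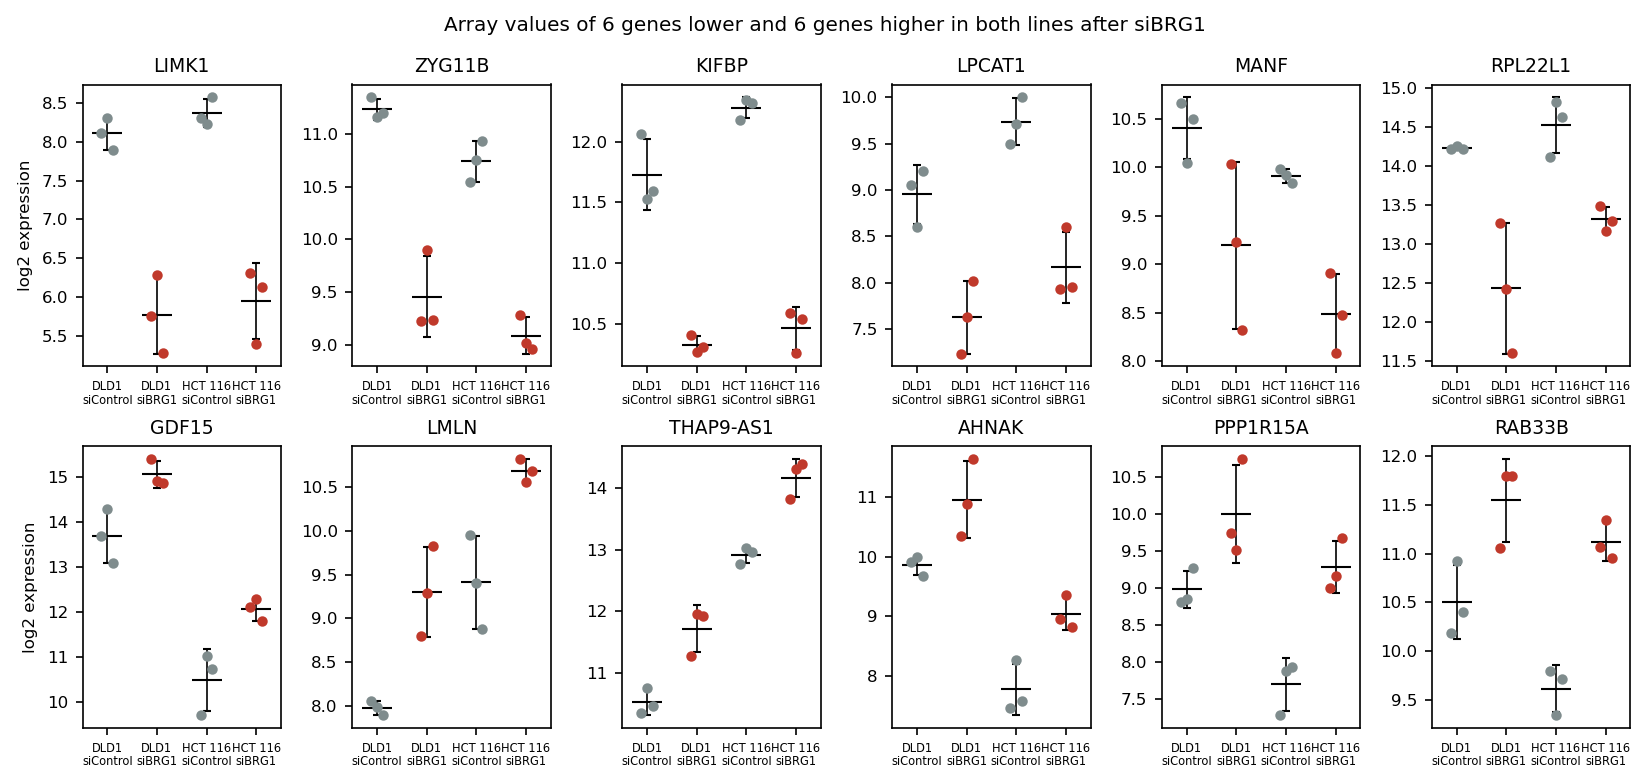
Array values (log2 expression, y axis) of 6 separated genes that fell and 6 that rose, by line and siRNA on the x axis. Grey points are siControl and red points siBRG1 arrays, with the mean and SD of 3 arrays in black. In each panel the red points of a line lie wholly below (top) or above (bottom) its grey points.

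Among the 28 SWI/SNF subunits measured, 4 fell and 1 rose on average (14.3% and 3.57%, against 8.10% and 7.02% of genes above the median level), with a median of −0.10 against −0.003 over all genes, SMARCA4 itself and BCL7B among the falls. SMARCC1, a core subunit, fell by 0.54 (SE 0.12) with changes of −0.55 and −0.53 in DLD1 and HCT 116. DPF2, which reads acetylated histone tails, rose by 0.72 (SE 0.13; changes of 0.84 and 0.59). BRD7, a bromodomain subunit of the polybromo form, was the other fall (−0.46), with array values overlapping in at least 1 line. BCL7B, SMARCC1 and DPF2 were separated.

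Many DNA replication genes fell on average. Of 55 measured genes of replication licensing and the fork, 24 fell on average, 43.6% against 4.68% of all genes and 8.10% of the genes above the median level. The list median was −0.44 on average, −0.26 in DLD1 and −0.61 in HCT 116. Tested within HCT 116 alone 25 of the list were called lower. Within DLD1 alone limma, ignoring the replicate numbers, called 0 of the list, against 0.198% of all genes. At an unadjusted p under 0.05 in DLD1 there were 17 of the 55, against 1860 of all 17687 genes. A negative change in both lines was found for 38 of the 55. Of the 24, 12 were separated and 19 kept their call whichever array was left out. Of all 827 genes called lower, 380 were separated and 397 kept their call in this way. Lower in all 3 numbered DLD1 pairs were 18 of the 24, against 671 of the 827. GINS2, a subunit of the replicative helicase, read 10.74, 10.27 and 10.93 in DLD1 siControl and 10.31, 9.79 and 9.21 in DLD1 siBRG1. In HCT 116 it read 11.15, 11.32 and 11.24 with siControl and 9.79, 9.32 and 9.60 with siBRG1. The DLD1 groups touched, with siBRG1 replicate 1 above siControl replicate 2, although each siBRG1 array was below the siControl array of its number, while the HCT 116 groups were more than 1 unit apart (average −1.27, SE 0.18, limma adjusted p = 9.53e-04).

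The 24 covered origins, the helicase and the fork. The origin and licensing genes ORC1 (−1.08), CDT1 (−1.06), CDC6 (−0.61) and GMNN, the inhibitor of CDT1 (−1.13), fell, as did MCM2, MCM3, MCM4, MCM5, MCM6 and MCM7, the 6 subunits of the helicase ring (averages from −0.68 to −0.96). So did MCM10 (−0.88), CDC45 (−0.64) and GINS3 (−0.79), which join the ring into the active helicase. At the fork, the primase partner POLA2 fell by 1.13, the clamp PCNA by 0.70, the clamp loader DSCC1 by 1.05 and the single-strand binding RPA2 by 0.93. FEN1 and LIG1, which trim and seal Okazaki fragments, had averages of −1.15 each (SE 0.14 and 0.24). FEN1 was separated, with DLD1 values from 13.58 to 13.86 in siControl and from 12.54 to 13.17 in siBRG1. LIG1 did not overlap in DLD1 (8.78 to 8.93 against 7.40 to 8.0) but did in HCT 116, where siControl replicate 1 read 6.62 and siBRG1 replicate 3 read 6.88. ORC3, an origin subunit, was called with changes of 0.02 in DLD1 and −1.09 in HCT 116.

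**Figure D3:**
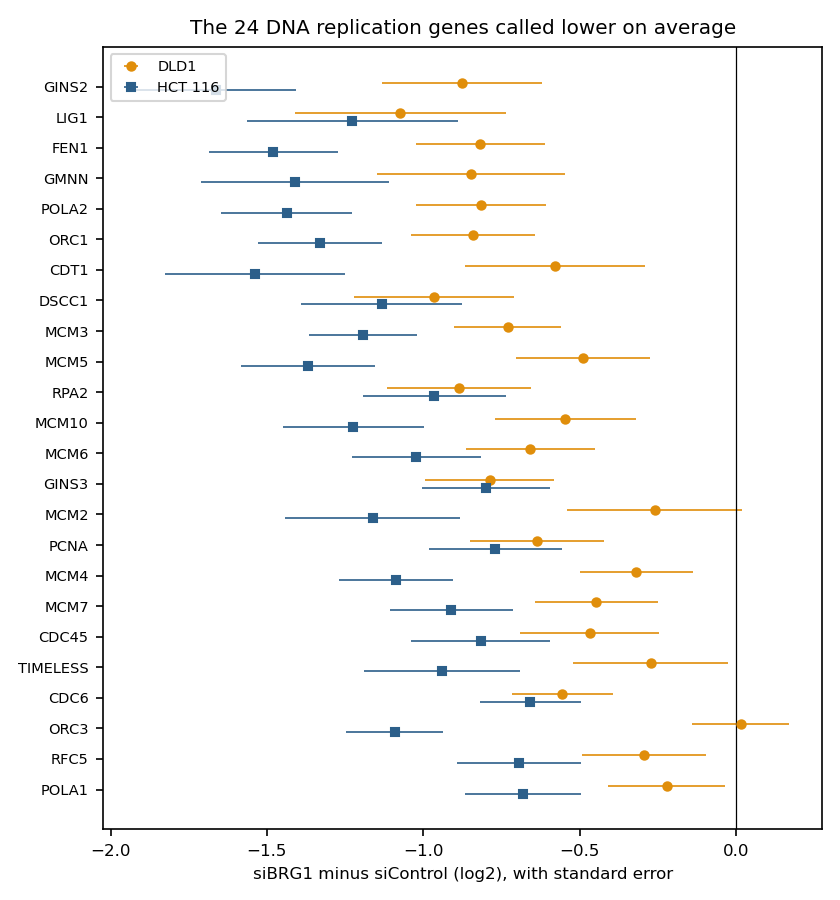
Change after siBRG1 (log2, x axis) of the 24 replication genes called lower on average, with the standard error of the limma fit, in DLD1 (circles) and HCT 116 (squares). All HCT 116 changes lie below 0, and 23 of the 24 DLD1 changes do, and each gene's change is the larger in HCT 116.

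Promoter letters were set beside these falls for the 14250 genes (80.6%) with a RefSeq promoter on GRCh38.p14, using the 250 bases before each start and both strands for each motif. The E2F letters were TTTCGCGC, TTTGGCGC and TTCCCGCC. They were present in 9 of 20 promoters of replication genes called lower (45.0%) and in 4 of 27 of replication genes not called (14.8%), against 5.12% of all promoters, 8.36% of all those called lower and 4.65% of those called higher. The 9 were those of CDT1, GINS2, LIG1, MCM3, MCM6, MCM7, PCNA, POLA1 and POLA2. A match describes the letters only and no test was made of these shares. GINS2 (chr16:85688955-85689204, minus strand, match from −32) and LIG1 (chr19:48170345-48170594, minus strand, match from −113) are shown as 2 of the largest falls of this list whose promoters match, with the match in capitals, which reads on the opposite strand in GINS2.
GINS2: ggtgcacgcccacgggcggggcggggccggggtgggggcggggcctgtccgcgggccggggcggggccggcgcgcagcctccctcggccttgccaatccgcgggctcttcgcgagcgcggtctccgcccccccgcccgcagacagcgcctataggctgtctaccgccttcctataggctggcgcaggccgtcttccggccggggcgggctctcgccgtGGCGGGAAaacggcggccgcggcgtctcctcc
LIG1: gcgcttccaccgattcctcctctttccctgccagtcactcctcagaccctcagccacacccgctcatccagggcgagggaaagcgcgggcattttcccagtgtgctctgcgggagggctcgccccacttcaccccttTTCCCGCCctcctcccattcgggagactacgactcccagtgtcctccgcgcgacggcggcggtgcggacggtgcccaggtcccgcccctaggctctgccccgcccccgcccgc

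Other cell division genes followed with smaller changes. The 70 genes of G2 and mitosis had a median of −0.24 (−0.18 in DLD1 and −0.32 in HCT 116). Of them 12 fell (17.1%, against 4.68% of all genes and 8.10% of genes above the median level), 9 of them separated. The count was 7 without DLD1 siBRG1 replicate 3. BIRC5, the survivin subunit of the chromosomal passenger complex, fell by 1.29 (SE 0.17) and TACC3, a spindle protein, by 0.96 (SE 0.17), and both were separated. Of 31 genes of nucleotide supply, 6 fell (19.4%). Among them were the CTP synthase CTPS1 (−0.88, with −0.83 and −0.93 in the lines) and the thymidylate synthase TYMS (−0.61, equal to 2 decimals in both lines). Of 34 genes for G1 cyclins, CDK inhibitors and E2F factors 5 fell (14.7%) and 1 rose (2.94%). Cyclin D3 (CCND3, −1.04) and the E2F partner TFDP1 (−0.53) were separated and kept their call whichever array was left out. That count of 5 fell to between 2 and 3 without any 1 of DLD1 siControl replicate 3, DLD1 siBRG1 replicates 2 and 3, HCT 116 siControl replicates 2 and 3 and HCT 116 siBRG1 replicates 2 and 3, and was 8 with the block. Of the 60 replication-dependent histone genes 2 fell (3.33%, below the 4.68% of all genes), with a median of −0.15 and 8 falls with the block.

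Falls were also called among genes of amino acid supply and of secreted protein folding. Of 34 genes of the ATF4 and amino acid response, 8 fell (23.5%, against 4.68% of all genes) and 2 rose (median −0.19, −0.28 in DLD1 and −0.15 in HCT 116), and with the replicate block 15 fell. The serine synthesis enzymes PHGDH (−1.64, SE 0.28) and PSAT1 (−1.33, SE 0.22), the asparagine synthetase ASNS (−1.58, SE 0.32) and the glutamine transporter SLC1A5 (−1.12, SE 0.19) were the largest falls kept without any 1 array. PHGDH read 14.09, 14.66 and 13.71 against 13.53, 13.69 and 12.10 in DLD1. In HCT 116 it read 12.94, 14.05 and 14.04 against 11.30, 11.60 and 11.44. The DLD1 groups were barely apart, and those of HCT 116 lay further apart. ASNS overlapped in DLD1, where siBRG1 values ran from 11.02 to 13.04 and siControl values from 12.59 to 14.26. It was lower in all 3 same-numbered DLD1 pairs, as were all 8 genes of the list that fell. Most called falls were: 671 of the 827 genes called lower were lower in all 3 DLD1 pairs.

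The 2 members that rose in that list were DDIT3 and PPP1R15A, described below. Of 36 genes of endoplasmic reticulum folding, 8 fell (22.2%) and 2 rose (median −0.20), with 13 falls with the block. Called lower were 4.68% of all genes and 8.10% of genes above the median level. The 8 became 4 without DLD1 siBRG1 replicate 3 and 5 without any 1 of DLD1 siControl replicate 2, HCT 116 siControl replicates 2 and 3 and HCT 116 siBRG1 replicate 3. CRELD2 read 10.56, 10.42 and 11.08 against 9.68, 9.40 and 9.65 in DLD1 and 10.07, 9.99 and 9.94 against 8.86, 8.56 and 8.45 in HCT 116. This chaperone-like protein was thus lower in every siBRG1 array (average −1.24, SE 0.14, limma adjusted p = 2.61e-04), as were MANF and the disulfide isomerase PDIA4 (−0.78, SE 0.17). Of 31 aminoacyl-tRNA synthetases 7 fell (22.6%, against the same 4.68% and 8.10%), with IARS1 (−0.63) and WARS1 (−0.60) separated. That count was 3 or 4 without any 1 of DLD1 siControl replicate 1, DLD1 siBRG1 replicate 3, HCT 116 siControl replicates 2 and 3 and HCT 116 siBRG1 replicates 2 and 3.

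Of 25 cytosolic heat shock genes, 6 fell (24.0%, against 4.68% of all genes and 8.10% of genes above the median level). The factor HSF1, which drives the class, rose by 0.67 (SE 0.12). Among the falls were DNAJB1 (−0.785), HSPE1 (−0.657) and HSPA1A (−1.36, SE 0.33), whose probes may not tell it from its near-identical copy. The count of falls was between 1 and 3 without any 1 of DLD1 siControl replicates 2 and 3, DLD1 siBRG1 replicate 3, HCT 116 siControl replicates 2 and 3 and HCT 116 siBRG1 replicates 2 and 3.

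Cholesterol synthesis had a large median but unstable calls. Of 21 genes measured, 19 had the same sign in both lines and the median was −0.68 (−0.46 in DLD1 and −0.87 in HCT 116). On average 5 fell (23.8%, against 4.68% of all genes and 8.10% of genes above the median level). Of these 0 were separated and 0 kept the call whichever array was left out. Of the 5, 4 were lower in all 3 numbered DLD1 pairs, against 671 of all 827 genes called lower. The pathway's IDI1 (−1.19, SE 0.35) and HMGCS1 (−1.03, SE 0.30) were called near the threshold (limma adjusted p = 0.0459 and 0.0492). The count was 11 without DLD1 siBRG1 replicate 1, 0 without DLD1 siControl replicate 1 or HCT 116 siControl replicate 2, 3 without DLD1 siControl replicate 2 or HCT 116 siBRG1 replicate 1, and 1 without any 1 of DLD1 siBRG1 replicates 2 and 3, HCT 116 siControl replicate 3 and HCT 116 siBRG1 replicates 2 and 3. With the block it was 12. In fatty acid and lipid synthesis 4 of 28 fell (14.3%, against the same 4.68% and 8.10%), with 8 falls without DLD1 siBRG1 replicate 1 and 9 with the block. All 4 kept their call without any 1 array: LPCAT1, ACSL5 (−0.88), SCD5 (−0.83) and the elongase ELOVL6 (−0.63).

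Of 23 tubulin genes, 6 fell (26.1%, against 4.68% of all genes and 8.10% of genes above the median level), with 11 falls with the block. The list median was −0.37 (−0.25 in DLD1 and −0.42 in HCT 116). TUBA4A read 14.29, 14.28 and 14.38 against 13.78, 13.69 and 12.96 in DLD1 and 12.44, 12.48 and 12.36 against 11.06, 10.87 and 11.02 in HCT 116. All its siBRG1 arrays were lower (average −1.14, SE 0.14, limma adjusted p = 5.18e-04). TUBB (−0.57) and TUBB8 (−0.78) were separated as well, but tubulin genes are alike in sequence and probes may be shared.

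The creatine kinase genes CKMT1A and CKMT1B, which are near-identical and may not be told apart, fell by 1.43 and 1.79 on average, more in DLD1 (−2.20 and −2.71) than in HCT 116 (−0.66 and −0.88). Of the 22 creatine and polyamine genes 5 fell (22.7%, against 4.68% of all genes and 8.10% of genes above the median level). The 1 rise (4.55%) was that of SMOX, the spermine oxidase (1.08, SE 0.21). The falls numbered 9 with the block, 3 without DLD1 siBRG1 replicate 3 and 8 without HCT 116 siControl replicate 1. In the list of intestinal stem cell and tumour markers 7 of 29 fell (24.1%), but SMARCA4 is a member of it. MYB, a crypt progenitor transcription factor, fell by 1.38 (SE 0.26, −0.82 and −1.93). It was separated, but barely in DLD1, where siControl replicate 1 read 10.585 and siBRG1 replicate 2 read 10.583. The count was 4 without any 1 of DLD1 siControl replicates 2 and 3, DLD1 siBRG1 replicate 1 and HCT 116 siControl replicates 2 and 3.

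**Figure D4:**
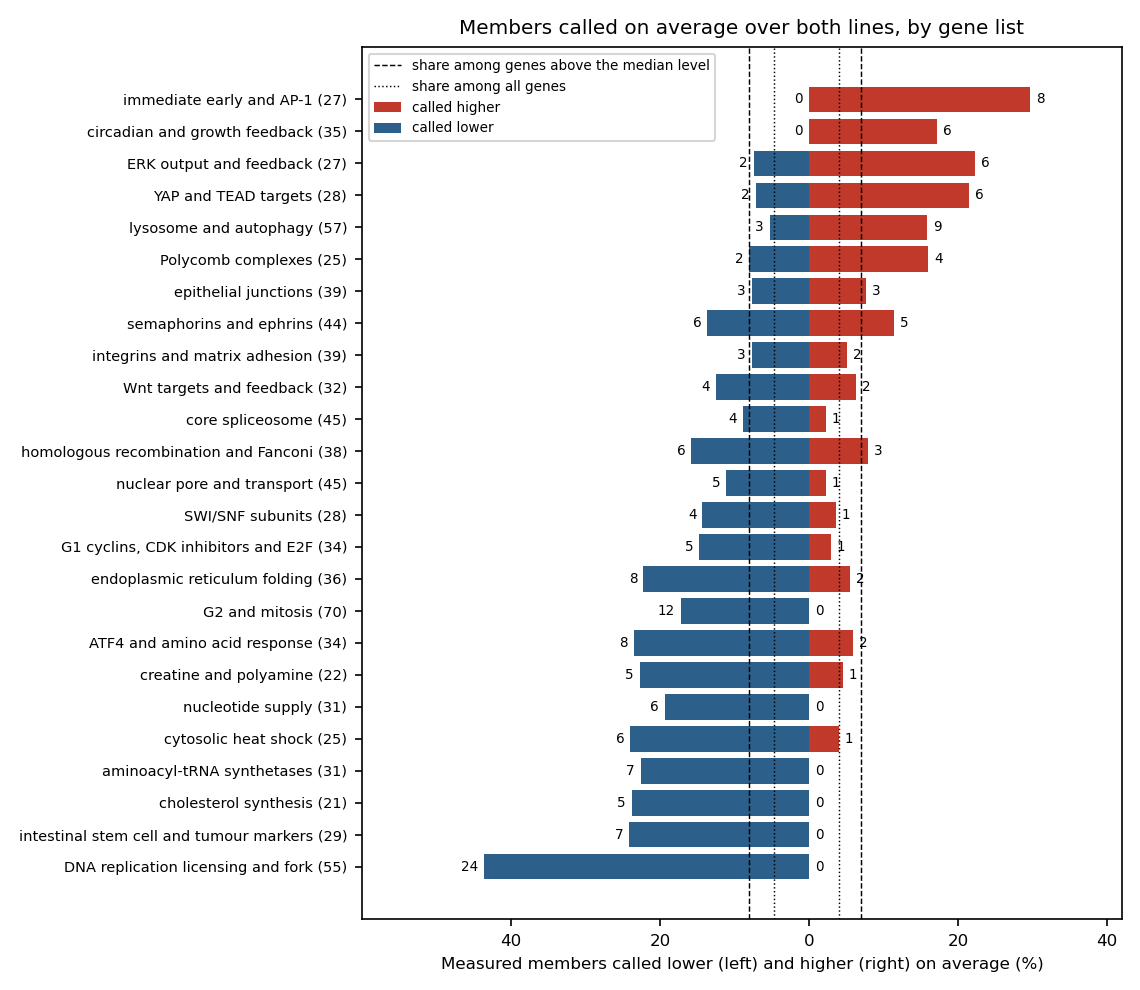
Share of the measured members of each gene list (number measured in brackets) called lower (blue, left) and higher (red, right) on average, in percent, with the number of members at the bar ends, for 25 of the lists with at least 20 members measured and 5 called. Dotted lines give the share among all genes (4.68% lower, 4.01% higher) and dashed lines that among genes above the median level (8.10% and 7.02%). Among the lists drawn, DNA replication reaches 43.6% lower and immediate early and AP-1 genes 29.6% higher.

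Ranked by the smaller of the line changes, the separated rises began with GDF15. This secreted TGF-beta family hormone, known to be induced by cell stress, read 13.69, 14.30 and 13.10 against 15.41, 14.91 and 14.87 in DLD1. In HCT 116 it read 9.71, 11.03 and 10.74 against 12.11, 12.28 and 11.80. All siBRG1 arrays were higher in each line (average 1.47, SE 0.24, 2.77-fold, limma adjusted p = 0.0021). DDIT3, the CHOP transcription factor of the integrated stress response, read 6.97, 7.86 and 6.57 against 8.40, 8.27 and 7.97 in DLD1. Its HCT 116 values were 5.31, 6.86 and 6.92 against 8.76, 8.91 and 9.35. The groups were apart in both lines, narrowly in DLD1, and the average change was 1.86 (SE 0.27, limma adjusted p = 0.00116). PPP1R15A, the regulatory subunit that lets protein phosphatase 1 dephosphorylate eIF2-alpha, had changes of 1.02 and 1.58 (average 1.30, SE 0.21). These rises stood beside the falls of other genes of the ATF4 response given above.

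Genes of other kinds made up the rest of the 12 shared rises. LMLN, a leishmanolysin-like metallopeptidase, read 8.05, 7.99 and 7.89 against 8.80, 9.30 and 9.82 in DLD1, and 9.95, 9.40 and 8.88 against 10.82, 10.56 and 10.68 in HCT 116, with no overlap (average 1.30, SE 0.19). The long noncoding RNA THAP9-AS1 changed by 1.2 and 1.25 (average 1.22, SE 0.16, limma adjusted p = 5.38e-04). AHNAK, a very large scaffold protein beneath the plasma membrane, changed by 1.11 and 1.27. Its relative AHNAK2 had the smallest adjusted p of the 709 genes called higher (average 1.84, SE 0.14, limma adjusted p = 8.04e-06), with 1.08 in DLD1 and 2.60 in HCT 116, a difference that itself passed (1.52, limma adjusted p = 0.0324). RAB33B, a Golgi and autophagosome GTPase, changed by 1.04 and 1.5, ARMCX6 by 1.01 and 1.31, C1QTNF6 by 1.02 and 1.29, TMEM182 by 1.17 and 1.04, and IRAK2, a kinase of Toll-like receptor signalling, by 1.01 and 1.03. All 12 kept the call whichever array was left out.

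JUN, which pairs with FOS proteins to form AP-1, had the largest average rise (2.48, SE 0.22, 5.57-fold, limma adjusted p = 2.24e-05). It read 7.19, 7.87 and 7.90 against 9.02, 8.08 and 8.81 in DLD1 and 6.29, 7.06 and 6.81 against 10.17, 11.15 and 10.78 in HCT 116. The siBRG1 arrays were higher in both lines, but by a change of 0.98 in DLD1 and 3.98 in HCT 116, and the difference passed (2.99, SE 0.44, limma adjusted p = 0.00777). Of 27 immediate early and AP-1 genes, 8 rose (29.6%, against 4.01% of all genes and 7.02% of genes above the median level). The list median was 0.38 (0.04 in DLD1 and 0.58 in HCT 116). JUN and KLF6 (0.47 and 1.48) were separated, whereas NR4A1, NR4A2 and NR4A3 had DLD1 changes of −0.03, −0.50 and −0.08 against 2.09, 2.43 and 2.67 in HCT 116.

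The JUN promoter (GRCh38.p14, chr1:58784048-58784297, minus strand) is shown because of this rise, with the AP-1 like letters TGACATCA in capitals (first base at −67 from the start). These letters were in 1.83% of the promoters of genes called higher, 0.88% of those called lower and 1.96% of all. The consensus AP-1 letters TGACTCA were in 2.82%, 2.79% and 3.17%, and the CRE letters TGACGTCA in 3.99%, 2.05% and 2.34%, in the same order.
JUN: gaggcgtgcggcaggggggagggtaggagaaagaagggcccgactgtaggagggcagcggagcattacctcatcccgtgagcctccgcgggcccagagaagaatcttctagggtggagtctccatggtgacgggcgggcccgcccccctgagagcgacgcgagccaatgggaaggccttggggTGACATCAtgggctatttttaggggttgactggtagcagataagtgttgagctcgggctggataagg

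Of 57 autophagy and lysosome genes measured, 9 rose on average (15.8%, against 4.01% of all genes and 7.02% above the median level), 8 of them separated, and 3 fell. The list median was 0.11 (0.17 in DLD1 and 0.02 in HCT 116), and within HCT 116 alone 4 were called higher and 5 lower. The count of rises was 5 without DLD1 siBRG1 replicate 3. The autophagy receptor SQSTM1 read 14.20, 14.88 and 14.31 against 15.33, 15.15 and 15.09 in DLD1. It read 13.22, 13.60 and 13.37 against 14.22, 14.21 and 14.15 in HCT 116. Its groups were apart in both lines (average 0.76, SE 0.14, limma adjusted p = 0.00444), and the receptors NBR1 (0.68) and OPTN (0.69) were separated too. Of the conjugation machinery, ATG12 (1.06) and ATG3 (0.62) rose while ATG7 fell (−0.49), and ATG12 changed by 0.24 in DLD1 and 1.88 in HCT 116. The lysosomal enzymes TPP1 (0.73), IDS (0.48) and MAN2B1 (0.47) rose, while the proton pump subunit ATP6V1H fell by 0.81 (SE 0.17).

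The 35 circadian and growth feedback genes had medians of 0.36 in DLD1 and 0.26 in HCT 116. Of them 6 rose (17.1%, against 4.01% of all genes and 7.02% of genes above the median level). The count was 3 without DLD1 siBRG1 replicate 3 or without HCT 116 siBRG1 replicate 2, and 11 with the block. CREBRF, a regulator of the CREB3 factor that is known from energy balance, changed by 1.30 in DLD1 and 1.0 in HCT 116 (average 1.15, SE 0.17), with no overlap in either line. The arrestin-domain genes ARRDC4 (1.49, SE 0.30) and ARRDC3 (1.30, SE 0.30), glucose and growth factor responsive regulators of uptake, rose with larger HCT 116 changes. ARRDC4 changed by 0.66 in DLD1 and 2.32 in HCT 116, and ARRDC3 by 0.83 and 1.77. The DLD1 arrays of both genes overlapped. Among 11 genes of the aryl hydrocarbon receptor response 4 rose (36.4%): CYP1B1 (1.16), TIPARP (0.94) and ARNT (0.56) had the same sign in both lines. CYP1A1 changed by 3.09 in DLD1 and −0.18 in HCT 116. HMOX1, the heme oxygenase, rose by 1.67 (SE 0.19, 0.97 and 2.38). Its DLD1 arrays overlapped, with siControl replicate 2 at 6.94 and siBRG1 replicate 2 at 6.92. HMOX1 was the 1 rise (2.78%) among 36 NRF2 and antioxidant genes measured, of which 2 fell (5.56%), while 4 rose and 5 fell with the block.

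Most zinc finger genes named ZNF were not called. Of 492 measured, 28 (5.69%) rose and 3 (0.61%) fell, with a median of 0.08, against 4.01% and 4.68% of all genes and 7.02% and 8.10% above the median level. The count of rises was 49 without DLD1 siBRG1 replicate 1, 17 without HCT 116 siControl replicate 2, 15 without DLD1 siBRG1 replicate 3, 18 without HCT 116 siBRG1 replicate 2 and 57 with the block (with 12 falls), and 13 kept the call whichever array was left out. ZNF778 (1.27, SE 0.20), ZNF484 (1.07, SE 0.17) and ZNF621 (0.97, SE 0.22) led those 13. Of 28 YAP and TEAD targets 6 rose (21.4%) and 2 fell (7.14%), of which AJUBA (0.85, SE 0.16) was separated. The count of rises was 2 or 3 without any 1 of DLD1 siControl replicates 2 and 3, DLD1 siBRG1 replicate 3, HCT 116 siControl replicates 2 and 3 and HCT 116 siBRG1 replicates 1 and 2, and 10 with the block.

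Some average calls were not shared changes. FGF19 (0.45 and −4.25), SCARA3 (0.03 and −3.72), SNAI2 (−0.38 and 3.56) and SCG2 (−0.01 and 3.12) were called on average with opposite signs in DLD1 and HCT 116.

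**Figure D5:**
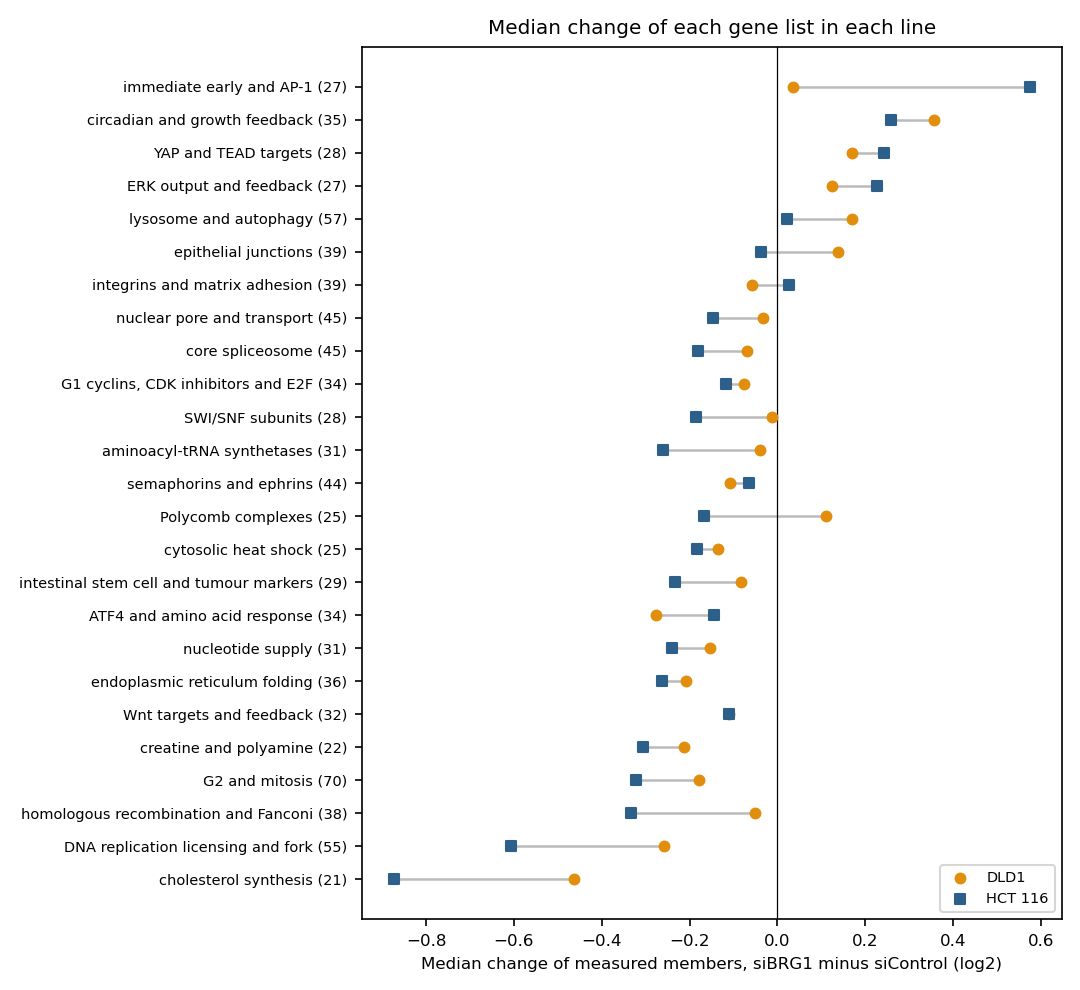
Median change after siBRG1 (log2, x axis) of the measured members of each list, in DLD1 (circles) and HCT 116 (squares), joined by a line; numbers of members are in brackets. DNA replication and cholesterol synthesis lie below 0 in both lines, and circadian and growth feedback above 0 in both (0.36 and 0.26).

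Several large families showed few calls or none. Of 56 cytosolic ribosomal protein genes 1 rose (RPS27L) and 1 fell (RPL22L1), and of 50 genes of MYC and ribosome biogenesis 1 rose and 1 fell. Among 36 proteasome subunits, 31 complex I subunits, 27 Notch pathway genes, 33 NF-kappaB and chemokine genes and 29 protocadherin genes limma called 0. Over all genes 8.68% were called. At an unadjusted p under 0.05 these lists had 4, 3, 2, 11 and 1 genes in that order, against 3804 of all 17687 genes. The largest averages among the proteasome and complex I genes were those of PSMD9 (−0.47, limma adjusted p = 0.195) and NDUFS4 (0.53, limma adjusted p = 0.0813). With the block 1 complex I gene, 1 Notch gene and 5 NF-kappaB and chemokine genes were called. The 349 olfactory receptor genes also had 0 limma calls (12 at an unadjusted p under 0.05, 3 with the block), with a median level of 3.52. Calls followed the level: of 4 equal bins by mean level, the lowest had 0.43% of its genes called and the next 4.07%, 14.59% and 15.65%.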

How the data were processed

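Biotin-labelled cDNA made from total RNA was read on single-colour Affymetrix arrays, with each sample on its own array. The submitters' processing notes name RMA and Affymetrix Power Tools for the deposited log2 expression values. No version or genome build is given in the sources used here. A 16-bit scan ends at 16 on the log2 scale, yet 94 to 112 values of each array lie above it. How those arose was not tested, so the scale is not fully known. Array medians were 6.36 to 6.50. Within groups arrays correlated at 0.988 to 0.994, and the root mean square deviation from the group mean was 0.32 for HCT 116 siControl replicate 1 and 0.227 to 0.285 for the others. The number of arrays limits the precision. Neither slide nor scan date was used as a batch.

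Features were named by the array annotation with RefSeq symbols matched on Entrez ID: 17709 had 1 symbol, 0 several and 3739 none. For 20 genes with several features the brightest was taken, leaving 17687. Limma 3.58.1 in R 4.3.3 fitted 4 group means over 12 arrays with eBayes (8 residual and 6.66 prior degrees of freedom) and Benjamini-Hochberg adjustment across the 17687 genes. The combined test took per gene the larger of the within-line one-sided p-values in the better direction, doubled.

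Genes were named by rule: SMARCA4 and SMARCA2; the 12 separated rises and falls with the largest smaller-of-the-lines change; the 5 largest average rises and falls; the 4 largest called genes of opposite sign; and per list up to 4 called members of the same sign in both lines, or 2 members where none was called. Other genes named were chosen after their values were seen. The 47 lists by function (1450 of 1596 names measured) and 20 families by symbol, and the genes described, were chosen with earlier results of these data known. Lists with few calls are mostly not described, and some results are not reported here.

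The titles number the arrays. Deviations of same-numbered arrays correlated at 0.49, 0.46 and 0.29 in DLD1 and at 0.30, 0.15 and 0.03 in HCT 116, above 0.1 for every pair in DLD1 alone. On this check from the data, not from the labels, DLD1 numbers count as pairs. The main fit does not use these pairs, so DLD1 calls are unpaired unless the block is named. A block in DLD1 only raised the genes called in each line with the same sign from 17 to 47. Alternatives were the replicate block, an additive model, each line alone, further normalization, level filters, feature means, other priors, array weights, stricter thresholds and each array left out. The fit was tested on simulated data with known changes. Limma called on average 32% of simulated log2 changes of 0.5 in both lines and 82% of changes of 1, where the combined test called 0% and 36%. Limma also called on average 86% of changes of 2 in HCT 116 only, where the combined test called 0%. The simulated noise was independent between arrays and so held no pairing.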

Additional observations from a re-analysis of the deposited data

Results flagged for a closer look

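The change after siBRG1 differed between the lines, by limma's test of the difference itself, for 18 of the genes named as called on average; each value is the HCT 116 change minus the DLD1 change on the log2 scale. The difference was above 0 for SNAI2 (3.94), SCG2 (3.13), KRTAP2-1 (3.05), JUN (2.99), KRTAP2-2 (2.87), SEMA3C (2.86), DKK1 (2.31), EGR1 (1.68), ATG12 (1.64), AHNAK2 (1.52), PARD6B (1.26) and RPS27L (1.24). KRTAP2-1 and KRTAP2-2 are near-identical and may share probes. It was below 0 for FGF19 (−4.70), SCARA3 (−3.75), TNS4 (−3.50), KRT23 (−2.57), AXIN2 (−2.01) and ACSL5 (−1.23). In JUN, KRTAP2-2, AXIN2, ATG12, AHNAK2, ACSL5 and RPS27L the arrays were nonetheless apart, and on the same side, in each line. Among the 3739 features with no symbol, 149 (3.99%) passed on average, 69 higher and 80 lower.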

How the results depend on the processing

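With the replicate number as a block within each line, 2476 genes were called on average (1527 of the 1536 among them) and 49 in each line; a block in DLD1 only, chosen after seeing the data, gave 1943 and 47. Average calls numbered 2306 with array weights, 494 at an adjusted p under 0.01 and 266 with a minimum change of 1.2-fold, and separated genes 323 at 0.01, 184 with 1.2-fold and 1118 with DLD1 compared within numbered pairs (chosen after seeing the data). Genes called in each line numbered 3 with each line alone, 29 above the median level, 33 with a trended and robust prior, 61 with array weights, 5 at 0.01 and 11 without both HCT 116 arrays numbered 1 (chosen after seeing the data). The combined test called 2 with each line alone, 7 with the trended prior and 8 with weights. Without 1 array, counts ran from 797 to 1593 on average, 485 to 1114 separated, 4 to 31 in each line and 3 to 7 in the combined test. Centring on array medians gave 738 higher and 769 lower. Of 212 named genes called on average, 152 kept the call without any 1 array, 192 in an additive model and 208 after centring, and 0 values reversed. The other alternatives run for each of the 4 counts left it within 1.5 times. The causes were not tested.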
